A study of Homo sapiens with 18 samples.

Results

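The genes for the proteins of the mitochondrial ribosome were followed in H929, MM1S and OPM2, 3 cell lines grown from human multiple myeloma, a cancer of plasma cells. They were taken as every gene of the raw count table with a symbol made of MRPL or MRPS, a number and at most 1 letter from A to C, and with a mean of at least 1 CPM (counts scaled to a common library size) over the 18 libraries. This gave 78 of 28395 genes, 29 named MRPS and 49 named MRPL, and no gene with such a symbol fell under the level. Every one of the 78 also passed the filter on low counts, and the lowest count of any of them in any library was 79.

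The mitochondrial ribosome translates the few messages of the mitochondrial genome, which encode core subunits of the respiratory chain and of ATP synthase. Its small subunit reads the message, its large subunit joins the amino acids, and it descends from a bacterial ribosome to which mitochondria added proteins of their own. All of its proteins are encoded in the nucleus, made in the cytosol and imported. By these roles, 16 of the genes encode small subunit proteins with a bacterial counterpart and 10 encode small subunit proteins particular to mitochondria. Another 29 encode large subunit proteins with a bacterial counterpart and 21 encode large subunit proteins particular to mitochondria, with MRPS30 and MRPS18A counted here because their products sit in the large subunit in spite of their names. The related MRPS18B and MRPS18C were counted with the small subunit genes that have a bacterial counterpart. For MRPS18A the class therefore refers to its place in the large subunit. The remaining 2, MRPL55 and MRPS36, were not assigned, and the MRPS36 product is known as a component of the 2-oxoglutarate dehydrogenase complex. The genes lay on 21 chromosomes and had a median transcript length of 865 bases, against 1047 bases for all genes tested.

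Each of 9 groups had 2 libraries. H929, MM1S and OPM2 cells with a knockout of IKZF1 (Ikaros), made by Cas9 with a guide RNA induced by doxycycline, were compared with cells of the same line that carried an empty vector. OPM2 cells with a knockout of IKZF3 (Aiolos), a related zinc finger transcription factor of lymphoid cells, had the same empty vector control. All knockout and empty vector cells received doxycycline at 1 µg/mL and were cultured for 72 h. OPM2 cells given lenalidomide at 10 µM for 72 h, a drug that leads both proteins to degradation, were compared with untreated OPM2 cells, and neither of these 2 groups received doxycycline. Empty vector and untreated OPM2 cells therefore differed at least in the vector and in doxycycline at once, and these cannot be told apart. The labels give no culture time for the untreated cells, so a difference in time is not known either. Doxycycline is a tetracycline, a class known to inhibit protein synthesis by mitochondrial ribosomes as well as bacterial ones, and the knockout cells received it too. All cells were sorted live by light scatter. Within each knockout pair the count columns carry different codes, which the labels do not explain. The codes of the OPM2 IKZF1 pair differ in a letter too. Nothing in the labels says whether the libraries of a knockout came from separate clones or cultures. The p-values therefore measure the spread between these samples, which may be technical.

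Libraries held 11803995 to 24189568 counts. Empty vector replicate 1 of OPM2 stood apart: 1013 genes lay more than 2-fold from its partner, against 16 to 422 within the other groups, and the counts of called genes that use it are also given without it. The transcript of the targeted gene was not lower after knockout. IKZF1 was at 124 and 188 CPM in H929 knockout libraries and 128 and 120 CPM in their empty vector libraries, at 312 and 333 CPM in MM1S knockout and 179 and 185 CPM in empty vector libraries, and at 213 and 225 CPM in OPM2 IKZF1 knockout libraries against 94.3 and 188 CPM in empty vector and 212 and 225 CPM in untreated ones. IKZF3 was at 69.3 and 66.6 CPM in OPM2 IKZF3 knockout libraries, 44.0 and 50.3 CPM in empty vector and 61.1 and 60.5 CPM in untreated ones. A Cas9 edit can leave the transcript in place, so these levels do not check the labels. Plasma cell and myeloma markers summed to 7211 to 22320 CPM per library, against at most 1.62 CPM for mature B cell, 40.8 CPM for T cell, 2.57 CPM for myeloid, 18.6 CPM for erythroid and 2.32 CPM for stromal and epithelial markers. The highest erythroid sums, 18.6 and 10.3 CPM, were in the OPM2 empty vector libraries, against 8.69 and 7.23 CPM in the untreated ones, and their part in the results was not tested.

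Summed over the 78 genes, the level was 10732 and 6953 CPM in OPM2 empty vector replicates 1 and 2. In the other 16 libraries, of all 3 lines, it lay between 4336 and 5496 CPM, with a mean of 4974 ± 313 CPM (SD, n = 16). Both empty vector libraries of OPM2 thus lay above every other library, at 2.16-fold and 1.40-fold of the untreated OPM2 mean, and replicate 1 lay well above replicate 2. As group means with their SD (n = 2 each), the sum was 5283 ± 94.9 CPM in OPM2 IKZF1 knockout cells, 5139 ± 247 CPM in IKZF3 knockout cells, 4635 ± 179 CPM after lenalidomide and 4976 ± 107 CPM in untreated cells. It was 5002 ± 152 CPM in H929 knockout and 5346 ± 212 CPM in H929 empty vector cells, and 4491 ± 219 CPM in MM1S knockout and 4920 ± 102 CPM in MM1S empty vector cells. In each of these 2 lines the knockout libraries lay below both empty vector libraries. In bulk RNA, fewer cells with these transcripts and less of them per cell cannot be told apart.

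**Figure D1:**
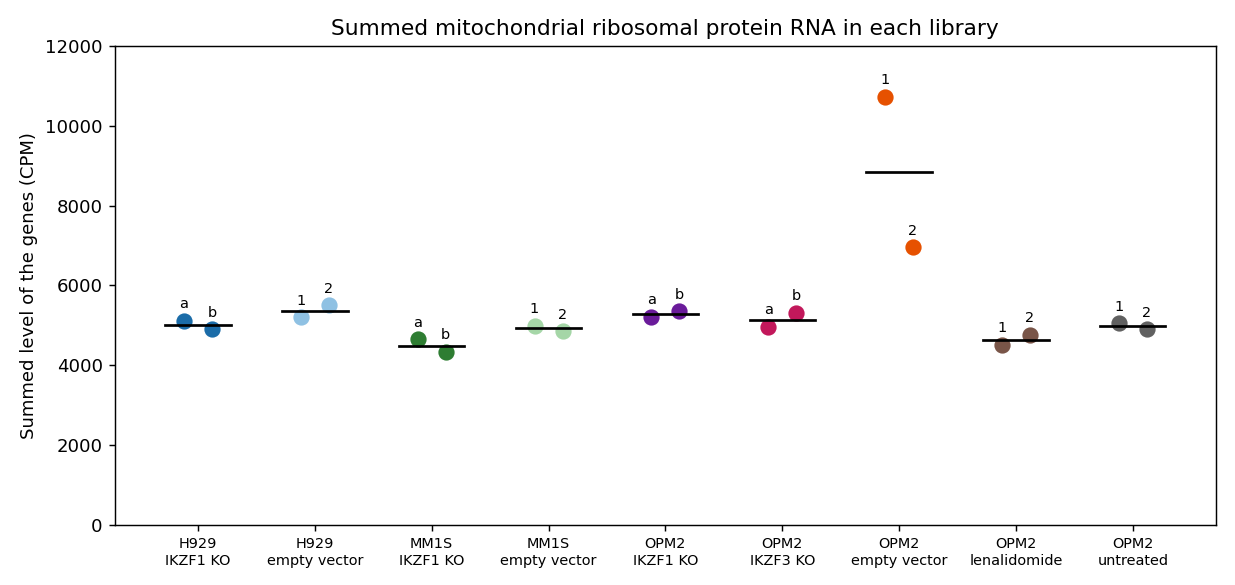
Summed level of the 78 mitochondrial ribosomal protein genes in CPM (vertical axis) in each of the 18 libraries (points), by group, with the group mean as a bar. The OPM2 empty vector libraries sit at 10732 and 6953 CPM, above the range of 4336 to 5496 CPM that holds the other 16 libraries.

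Per length, the authors' deposited table of log2 FPKM values gave the same placement. The median over the 78 genes in it was 5.82 in the merged OPM2 empty vector column, against 4.80 to 5.25 in the other 13 columns, and 76 of the 78 genes were higher in that column than in the merged untreated one. In untreated OPM2 cells the highest values of that table were 7.69 for MRPS34, 7.43 for MRPL12 and 7.32 for MRPL51, on the log2 FPKM scale. The lowest was 2.08, for MRPS25. In CPM, which are not divided by length, MRPS25 was at 46.2 and 43.6 in untreated libraries. There MRPS24 was lowest, at 7.26 and 6.73 CPM, and MRPS34 highest, at 210.9 and 211.3 CPM. Transcript levels for proteins of the same particle thus differed widely within one cell line, and the lowest gene depended on the scale.

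OPM2 empty vector cells were compared with untreated OPM2 cells first, because the placement of this control decides the knockout comparisons. Of the 78 genes, 71 rose in empty vector cells and none fell, with a median log2 fold change of 0.85 (edgeR quasi-likelihood test, Benjamini-Hochberg adjusted p below 0.05 over the 14571 genes tested). Of all genes tested, 19.5% rose and 15.8% fell, with a median of 0.00. The rise took in every class: 15 of 16 and 10 of 10 small subunit genes, 25 of 29 and 19 of 21 large subunit genes, each pair with the bacterial counterparts first, and both unassigned genes. Both empty vector libraries lay above both untreated libraries for 75 of the 78, against 31.4% of genes tested.

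MRPS12, whose product lies at the decoding site of the small subunit (GRCh38.p14 chr19:38930944-38933168), was at 297 and 160.4 CPM in empty vector libraries and 90.3 and 88.0 CPM in untreated ones. Its log2 fold change was 1.36 ± 0.20 (SE; adjusted p = 0.000913). MRPL12, the stalk protein that calls translation factors to the large subunit (chr17:81703367-81707517), was at 534 and 257 CPM in empty vector libraries and 178 and 163 CPM in untreated ones, a log2 fold change of 1.21 ± 0.22 (adjusted p = 0.00177). For both genes the lower empty vector library still lay well above both untreated libraries. MRPL11, part of the site where GTPase factors bind (chr11:66435075-66438848), was at 195 and 101 CPM in empty vector libraries against 62.1 and 62.8 CPM in untreated ones, and its log2 fold change was 1.24 ± 0.22 (adjusted p = 0.00149). MRPL52, a large subunit protein particular to mitochondria (chr14:22829887-22835037), had the highest fold change of the 78, at 89.6 and 45.8 CPM in empty vector libraries and 27.1 and 22.2 CPM in untreated ones (log2 fold change 1.45 ± 0.24, adjusted p = 0.00128). MRPS17, on chromosome 7 at chr7:55951877-55956500, was at 34.8 and 22.9 CPM in empty vector libraries against 11.9 and 12.4 CPM in untreated ones (log2 fold change 1.24 ± 0.20). In these 3 genes too the groups did not overlap, and replicate 1 was the higher library. By the exons of GENCODE 29, MRPS12 overlaps SARS2, MRPL12 overlaps AC139530.2, MRPL11 overlaps PELI3 and MRPS17 overlaps NIPSNAP2, and 41 of the 78 genes share such a stretch with another gene. The strand used in counting is not stated in the labels, so reads of opposite genes cannot be told apart, and 34 of the genes have named pseudogene copies that could share reads.

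Genes with other roles in the ribosome rose as well. MRPL3, a core protein beside the peptidyl transferase centre (chr3:131462212-131502971), was at 186 and 173 CPM in empty vector libraries and 117 and 112 CPM in untreated ones, a log2 fold change of 0.64 ± 0.11 (adjusted p = 0.00152). MRPS30, a large subunit protein also known as a candidate cell death gene (chr5:44808947-44815514), was at 81.8 and 79.1 CPM against 63.3 and 63.6 CPM in untreated libraries (log2 fold change 0.34, adjusted p = 0.0318), and without replicate 1 it did not pass (0.28, adjusted p = 0.0723). Of the 3 genes of the MRPS18 family, which arose by duplication, MRPS18A was at 96.7 and 58.1 CPM in empty vector libraries and 44.0 and 40.2 CPM in untreated ones, and its log2 fold change was 0.87. MRPL58, the release factor homologue that frees stalled ribosomes, was at 76.2 and 50.1 CPM in empty vector libraries and 31.95 and 30.8 CPM in untreated ones, with a log2 fold change of 1.00. The 7 genes that did not pass were MRPL10, MRPL19, MRPL30, MRPL34, MRPL42, MRPL44 and MRPS10. MRPL42 was at 66.9 and 83.5 CPM in empty vector libraries and 73.8 and 82.9 CPM in untreated ones, so its groups overlapped. MRPL19 was at 65.2 and 90.6 CPM in empty vector libraries and 76.4 and 78.5 CPM in untreated ones, and here too replicate 1 was the lower of its pair.

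The size of the difference depended on empty vector replicate 1. Its median log2 level over the untreated mean, taken over the 78 genes with 0.5 CPM added, was 1.15, with 75 genes above 0, against 0.48 for replicate 2, with 78 genes above 0. The remaining OPM2 libraries had medians from -0.12 to 0.14. Replicate 1 exceeded replicate 2 in 73 of the 78 genes (93.6%), against 48% of genes tested. Both empty vector libraries lay above all 8 libraries of the other OPM2 groups in 69 genes (88.5%), against 18.3% of genes tested. Without replicate 1, 56 genes rose and none fell in the same test, all 56 among the 71, and the median log2 fold change was 0.45, while 10.3% of genes tested rose. MRPS12 then had a log2 fold change of 0.81 ± 0.10 (adjusted p = 0.000103), MRPL12 one of 0.56, MRPL11 one of 0.66, MRPL52 one of 0.85 and MRPS17 one of 0.88. MRPL3 had 0.55, MRPL58 0.64 and MRPS18A 0.43, and all 3 passed. When only these 2 groups were fitted, edgeR called 0 of the 78 genes and 0.00% of genes tested. Of the 78, 57 then had an unadjusted p under 0.05, and the median was 0.84. For fits of the compared groups alone, the number of genes tested under that unadjusted p is not given. DESeq2 and limma-voom, with all libraries, called 71 each.

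**Figure D2:**
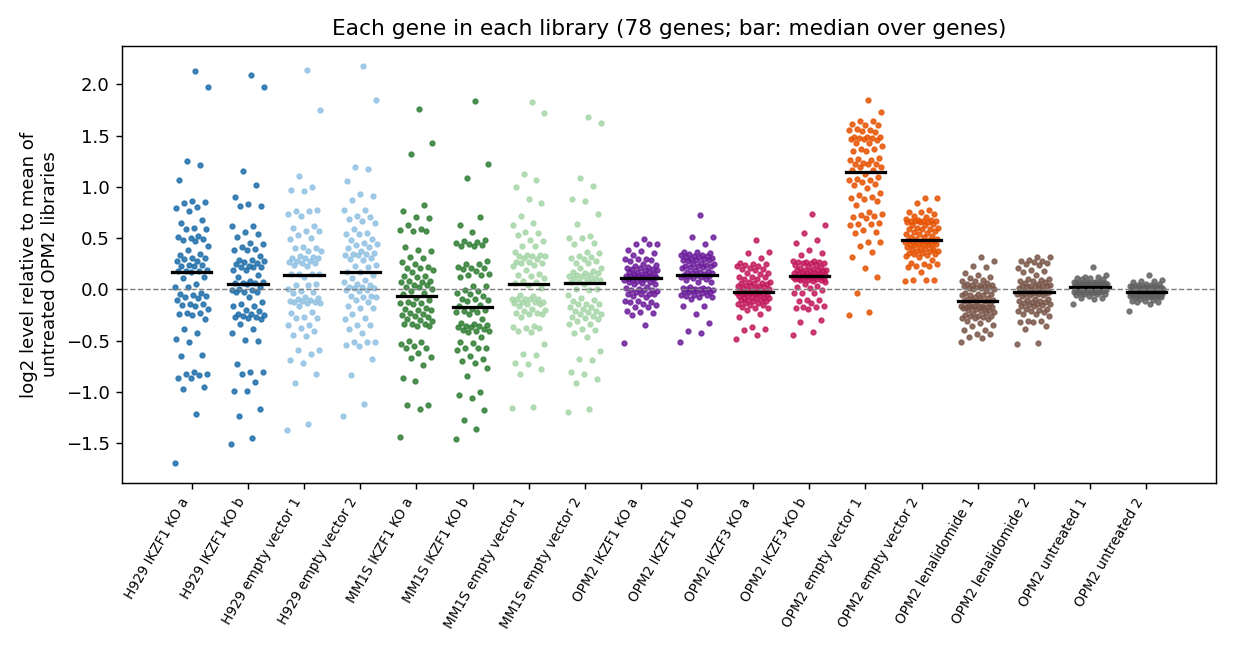
Level of each of the 78 genes in each library (points) relative to the mean of the untreated OPM2 libraries, on a log2 scale with 0.5 CPM added (vertical axis), with the median over genes as a bar. The medians of OPM2 empty vector replicates 1 and 2 are 1.15 and 0.48, while those of the remaining OPM2 libraries lie between -0.12 and 0.14.

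Base composition moved with replicate 1. Over all genes tested, the median log2 level of replicate 1 over the untreated mean was -0.50 among the genes in the lowest of 4 equal bins of GC content, then -0.16, 0.13 and 0.46 in the following bins. The 78 genes had medians of 0.64, 0.86, 1.36 and 1.47 in the same bins, above all genes in each. In replicate 2 the medians of all genes ran from -0.09 to 0.05, and those of the 78 genes were 0.44, 0.45, 0.64 and 0.48. The 78 genes had a median GC content of 50.5%, against 49.7% for genes tested. By 4 equal bins of transcript length, the 78 genes had medians of 1.31, 1.07, 1.11 and 0.74 in replicate 1, from the shortest to the longest, where all genes had 0.01, 0.19, 0.01 and -0.30. With GC content and length corrected in each library, 73 of the 78 genes rose with a median log2 fold change of 0.74, against 19.3% of genes tested.

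The bases upstream of the genes were searched for short motifs, because factors known to act on genes of the mitochondrial ribosome, nuclear respiratory factor 1 and the ETS protein GABPA, have defined ones. RefSeq promoters of build GRCh38.p14 matched 70 of the 78 genes, and the 250 bases before each start were read on both strands. The ETS motif CCGGAAG was found in 23 of 70 (32.9%), against 15.5% of 11376 tested genes and 8.52% of 35116 promoters. The motif of nuclear respiratory factor 1 was found in 8 (11.4%), against 10.2% of tested genes and 5.07% of all promoters. TGGGAA, the core of Ikaros motifs, was found in 14 (20%), against 19.3% and 20.8%. CCAAT was found in 19 (27.1%), against 35.3% and 32%, and the E-box CACGTG in 7 (10%), against 8.86% and 6.34%. The ETS motif was in 21 of the 64 searched genes that rose in empty vector cells and in 2 of the 6 that did not pass. Each motif was counted on its own, so matches of different motifs could share bases, and a match is a description of letters, not of binding. Shown are 4 of the 8 windows that hold no annotated exon: 3 of genes that rose (MRPL11, MRPL58 and MRPS18A) and, for contrast, 1 that did not pass (MRPL19). They are written 5′ to 3′ on the strand of the gene, and capitals mark the matches on either strand.
MRPL11, GRCh38.p14 chr11:66438849-66439098, minus strand, 1 Ikaros core: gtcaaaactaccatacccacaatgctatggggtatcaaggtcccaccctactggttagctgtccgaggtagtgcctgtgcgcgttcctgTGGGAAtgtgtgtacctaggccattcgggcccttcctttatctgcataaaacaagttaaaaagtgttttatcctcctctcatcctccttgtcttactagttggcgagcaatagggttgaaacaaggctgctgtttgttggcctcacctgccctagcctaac
MRPL58, GRCh38.p14 chr17:75012420-75012669, plus strand, 2 ETS motifs: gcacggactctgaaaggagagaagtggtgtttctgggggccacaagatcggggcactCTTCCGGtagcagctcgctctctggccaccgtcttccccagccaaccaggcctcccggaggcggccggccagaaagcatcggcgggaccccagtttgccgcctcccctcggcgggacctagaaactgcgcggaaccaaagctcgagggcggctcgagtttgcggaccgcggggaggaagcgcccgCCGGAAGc
MRPS18A, GRCh38.p14 chr6:43687792-43688041, minus strand, 1 CCAAT box and 1 ETS motif: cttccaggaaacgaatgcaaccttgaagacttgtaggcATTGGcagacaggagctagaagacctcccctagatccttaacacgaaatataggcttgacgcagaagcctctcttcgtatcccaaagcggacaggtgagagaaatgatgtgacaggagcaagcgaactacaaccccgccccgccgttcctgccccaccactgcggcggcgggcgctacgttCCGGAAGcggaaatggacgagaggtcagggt
MRPL19, GRCh38.p14 chr2:75646533-75646782, plus strand, no match: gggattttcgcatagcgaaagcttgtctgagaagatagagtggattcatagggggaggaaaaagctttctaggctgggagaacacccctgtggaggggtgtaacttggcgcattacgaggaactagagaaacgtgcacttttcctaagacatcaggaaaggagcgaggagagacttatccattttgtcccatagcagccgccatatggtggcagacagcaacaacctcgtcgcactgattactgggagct

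IKZF1 knockout OPM2 cells were set against both controls, and the outcome depended on which one was used. Against empty vector cells, 63 of the 78 genes fell and none rose (edgeR, adjusted p below 0.05), with a median log2 fold change of -0.76, while 20.0% of genes tested fell and 16.2% rose. Against untreated cells, 1 gene fell and none rose, with a median of 0.12, while 3.69% of genes tested fell and 4.08% rose. Both contrasts use the same knockout libraries. At an unadjusted p under 0.05 there were 7 of the 78 genes in the second contrast, against 3098 of the 14571 genes tested.

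MRPL54, particular to the mitochondrial large subunit, showed the largest fall against empty vector, at 24.4 and 28.1 CPM in IKZF1 knockout libraries, 84.4 and 39.8 CPM in empty vector and 31.3 and 26.3 CPM in untreated ones. Its log2 fold change was -1.24 ± 0.245 against empty vector (adjusted p = 0.00225) and -0.14 ± 0.245 against untreated cells (adjusted p = 0.823). MRPL17, a protein near the exit of the peptide tunnel, was at 57.0 and 63.2 CPM in knockout, 166 and 106 CPM in empty vector and 65.7 and 59.2 CPM in untreated libraries, with log2 fold changes of -1.17 ± 0.18 (adjusted p = 0.000562) against empty vector and -0.06 ± 0.18 (adjusted p = 0.918) against untreated cells. For both genes the knockout libraries overlapped the untreated ones and lay below both empty vector libraries. MRPS12 was at 100.5 and 104 CPM in knockout libraries and had a log2 fold change of -1.16 ± 0.20 (adjusted p = 0.00123) against the empty vector libraries given above and 0.20 ± 0.20 against untreated ones. MRPL12 was at 187 and 170.3 CPM in knockout libraries, with log2 fold changes of -1.15 ± 0.22 (adjusted p = 0.00204) against empty vector and 0.07 ± 0.22 against untreated cells. The stalk base protein MRPL10 was at 69.1 and 67.7 CPM in knockout, 107 and 85.0 CPM in empty vector and 79.98 and 79.6 CPM in untreated libraries. It fell against empty vector by 0.49 ± 0.13 on the log2 scale (adjusted p = 0.0099), and its log2 fold change against untreated cells was -0.22 ± 0.13 (adjusted p = 0.361). MRPL10 was thus lower in both knockout libraries than in either control, but passed the test against only one of them.

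By class, 13 of 16 small subunit genes with a bacterial counterpart fell against empty vector, as did 7 of 10 small subunit genes particular to mitochondria, 25 of 29 and 16 of 21 of the large subunit genes in the same order, and both unassigned ones. The 15 that did not pass were MRPL13, MRPL19, MRPL30, MRPL32, MRPL42, MRPL44, MRPL45, MRPL49, MRPL50, MRPS9, MRPS10, MRPS14, MRPS22, MRPS28 and MRPS35. MRPL45, a protein that ties the ribosome to the inner membrane, was at 44.4 and 36.8 CPM in knockout libraries against 57.1 and 43.8 CPM in empty vector and 33.3 and 40.4 CPM in untreated ones, so its knockout values overlapped both controls. MRPS22, a disease gene of combined respiratory chain deficiency, was at 44.4 and 43.1 CPM in knockout, 60.8 and 47.2 CPM in empty vector and 33.5 and 34.7 CPM in untreated libraries. Its knockout libraries lay between the controls, with log2 fold changes of -0.30 ± 0.12 (adjusted p = 0.0728) and 0.36 ± 0.13 (adjusted p = 0.101).

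MRPL34, a small large-subunit protein (chr19:17292573-17306843), was the gene that fell against untreated cells. It was at 63.1 and 63.5 CPM in IKZF1 knockout libraries, 134 and 97.1 CPM in empty vector and 94.7 and 87.5 CPM in untreated ones, and its log2 fold change against untreated cells was -0.53 ± 0.14 (adjusted p = 0.0279). Against empty vector it was -0.87 ± 0.14 (adjusted p = 0.000732). Both knockout libraries lay below all 4 control libraries. Its exons overlap ABHD8 in the annotation.

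Without empty vector replicate 1, 40 of the 78 genes fell in IKZF1 knockout against empty vector cells, all of them among the 63, and the median log2 fold change was -0.35, while 10.0% of genes tested fell. MRPL17 then had a log2 fold change of -0.78, MRPS12 one of -0.62, MRPL54 one of -0.57 and MRPL12 one of -0.49, and all 4 passed. MRPL34 also passed (-0.59), while MRPL10 did not (-0.28, adjusted p = 0.0701). With the 2 groups fitted alone, 0 of the 78 genes passed in edgeR (35 at an unadjusted p under 0.05), as did 0.929% of genes tested, and against untreated cells without both empty vector libraries 11 genes rose and 2 fell, where 10.9% and 10.0% of genes tested did.

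**Figure D3:**
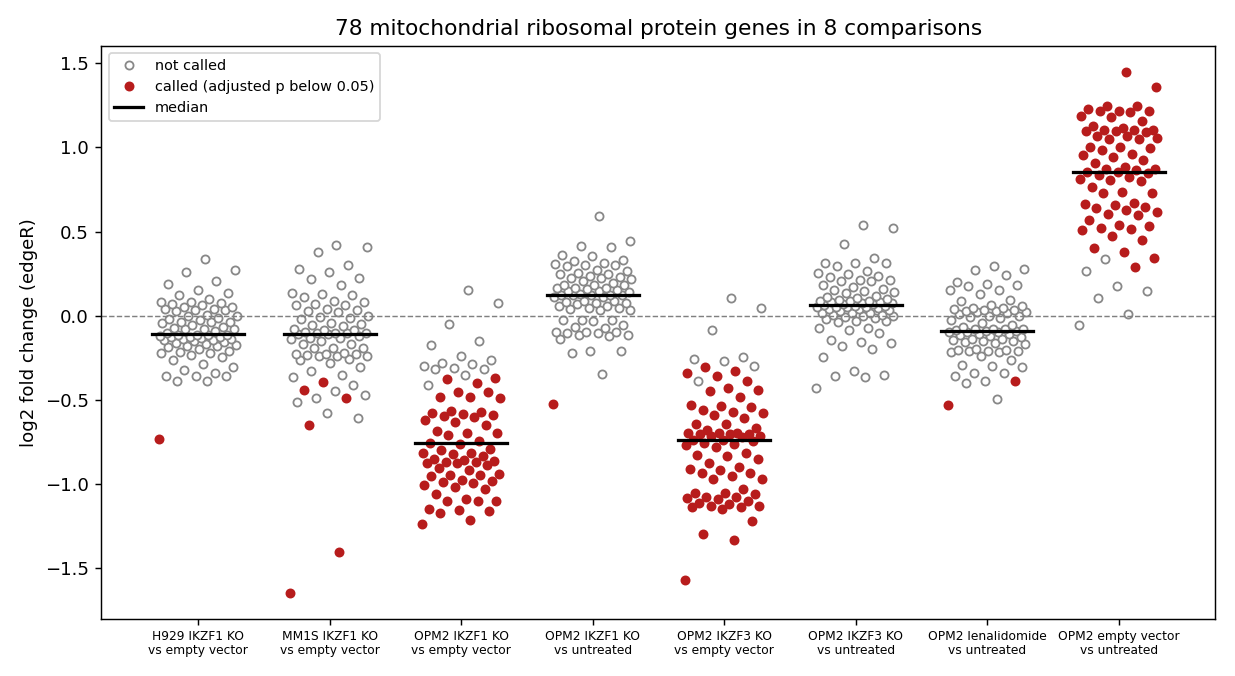
Log2 fold changes from edgeR (vertical axis) of the 78 genes (points) in 8 comparisons, with called genes filled in red and the median as a bar. The medians are -0.76 and -0.74 for OPM2 IKZF1 and IKZF3 knockout against empty vector, 0.12 and 0.06 for the same knockouts against untreated cells, and 0.85 for empty vector against untreated cells.

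IKZF3 knockout OPM2 cells were set against the same empty vector and untreated libraries. Against empty vector cells, 70 of the 78 genes fell and none rose, with a median log2 fold change of -0.74, while 20.6% of genes tested fell and 16.2% rose. Against untreated cells edgeR called 0 genes, with a median of 0.06, while 8.27% of genes tested were called. In that contrast 8 of the 78 had an unadjusted edgeR p under 0.05, against 3198 of the 14571 genes tested. DESeq2 called 3 of the 78 there and limma-voom called 1.

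MRPS17, a small subunit protein with a bacterial counterpart, showed the largest fall, at 8.50 and 10.7 CPM in IKZF3 knockout libraries, 34.8 and 22.9 CPM in empty vector and 11.9 and 12.4 CPM in untreated ones. Its log2 fold change was -1.57 ± 0.21 against empty vector (adjusted p = 0.000197) and -0.33 ± 0.21 against untreated cells (adjusted p = 0.405). MRPL12 was at 155 and 166 CPM in IKZF3 knockout libraries, with log2 fold changes of -1.30 ± 0.22 against empty vector (adjusted p = 0.00102) and -0.08 ± 0.22 against untreated cells (adjusted p = 0.897). For MRPL12 the knockout and untreated libraries overlapped, and both lay below the empty vector libraries. MRPS24, the gene with the lowest mean count of the 78, was at 6.23 and 6.15 CPM in knockout libraries against 22.2 and 9.49 CPM in empty vector and 7.26 and 6.73 CPM in untreated ones (log2 fold change -1.33 against empty vector, adjusted p = 0.00419). MRPS26, particular to the mitochondrial small subunit, was at 39.2 and 47.8 CPM in knockout, 129 and 73.9 CPM in empty vector and 43.8 and 43.4 CPM in untreated libraries (log2 fold change -1.22 ± 0.20 against empty vector, adjusted p = 0.000688). Its knockout libraries lay on either side of the untreated ones.

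MRPL10 had the smallest adjusted p of the 78 genes against untreated cells, 0.0556, with a log2 fold change of -0.43 ± 0.13. It was at 58.6 and 59.8 CPM in IKZF3 knockout libraries, 107 and 85.0 CPM in empty vector and 79.98 and 79.6 CPM in untreated ones, so both knockout libraries lay below both controls. MRPS30 was at 48.4 and 50.6 CPM in knockout libraries, 81.8 and 79.1 CPM in empty vector and 63.3 and 63.6 CPM in untreated ones, with a log2 fold change of -0.70 ± 0.12 against empty vector (adjusted p = 0.000803) and of -0.36 ± 0.12 against untreated cells (adjusted p = 0.0714). It too lay below both controls in both libraries, and missed the threshold against one of them. The 8 genes that did not pass against empty vector were MRPL13, MRPL19, MRPL42, MRPL44, MRPL49, MRPS10, MRPS14 and MRPS28. MRPL44, which resembles the RNA-cleaving enzyme RNase III, was at 56.1 and 53.0 CPM in IKZF3 knockout, 70.2 and 64.1 CPM in empty vector and 61.0 and 60.4 CPM in untreated libraries.

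Without empty vector replicate 1, 48 genes fell in IKZF3 knockout against empty vector cells, all among the 70, and the median log2 fold change was -0.41, while 11.3% of genes tested fell. MRPS17 then had a log2 fold change of -1.21 ± 0.18 (adjusted p = 0.000195), MRPL12 one of -0.64, MRPS26 one of -0.73, MRPS30 one of -0.64 and MRPL10 one of -0.49, and all 5 passed. MRPS24 did not (-0.58, adjusted p = 0.065). With the 2 groups fitted alone, 0 of the 78 passed in edgeR (39 at an unadjusted p under 0.05), as did 0.419% of genes tested, and against untreated cells without both empty vector libraries 9 rose and 5 fell, where 11.4% and 10.9% of genes tested did.

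The IKZF1 and IKZF3 knockouts of OPM2 were also compared with each other, which uses neither control. EdgeR called 0 of the 78 genes, while 2.59% of genes tested were called, and the median log2 fold change was 0.04. At an unadjusted edgeR p under 0.05 there were 4 of the 78, against 1944 of the 14571 genes tested. DESeq2 called 1 of the 78 and limma-voom called 0. The smallest adjusted p, 0.0834, was that of MRPS17, at 17.3 and 15 CPM in IKZF1 knockout and 8.50 and 10.7 CPM in IKZF3 knockout libraries, a log2 difference of 0.74 ± 0.21. Its groups did not overlap, and the untreated libraries at 11.9 and 12.4 CPM lay between them. Without both empty vector libraries, 3 genes were called higher and 1 lower in IKZF1 knockout than in IKZF3 knockout cells, with 9.22% of genes tested called.

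Lenalidomide was compared with untreated OPM2 cells, a contrast without doxycycline in either group. Of the 78 genes, 2 fell and none rose, with a median log2 fold change of -0.09, while 4.58% of genes tested fell and 5.76% rose. MRPL34 was at 63.5 and 62.7 CPM after lenalidomide against 94.7 and 87.5 CPM in untreated libraries, a log2 fold change of -0.53 ± 0.14 (adjusted p = 0.022). MRPS30 was at 45.8 and 51.1 CPM after lenalidomide against 63.3 and 63.6 CPM, and its log2 fold change was -0.39 ± 0.12 (adjusted p = 0.0447). In both genes the treated libraries lay below both untreated ones. MRPL10 was at 57.4 and 63.7 CPM after lenalidomide and 79.98 and 79.6 CPM in untreated libraries (log2 fold change -0.40 ± 0.13, adjusted p = 0.0697), and MRPL45 was at 27.0 and 25.3 CPM against 33.3 and 40.4 CPM (log2 fold change -0.49 ± 0.16, adjusted p = 0.0609). These 2 were lower in both treated libraries without passing. Without both empty vector libraries in the fit, which take no part in this contrast but add to the shared spread, 14 genes fell and 1 rose, where 10.9% and 11.6% of genes tested did. With these 2 groups fitted alone, 23 fell and 6 rose, where 21.9% and 23.4% of genes tested did.

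All contrasts with untreated cells share the same untreated libraries, so their values stand side by side and not as separate evidence. After IKZF3 knockout MRPL34 was at 68.8 and 73.7 CPM, with a log2 fold change of -0.35 ± 0.14 against untreated cells (adjusted p = 0.13).

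In H929 cells, 1 of the 78 genes fell after IKZF1 knockout and none rose, with a median log2 fold change of -0.11, while 4.60% of genes tested fell and 5.92% rose. The gene was MRPL33, a small large-subunit protein (chr2:27771719-27779733), at 8.97 and 7.79 CPM in knockout libraries against 14.1 and 13.7 CPM in empty vector ones, a log2 fold change of -0.73 ± 0.21 (adjusted p = 0.0362). Its groups did not overlap, DESeq2 also called 1 gene and limma-voom called 0, and no gene passed once any 1 of the 4 H929 libraries was left out. MRPL12 was at 165 and 173 CPM in knockout and 189 and 198 CPM in empty vector libraries, and MRPS12 at 101 and 84.8 CPM against 110.3 and 109.7 CPM, both lower in both knockout libraries and neither called. Without both OPM2 empty vector libraries, 8 genes fell and 2 rose, where 11.1% and 11.5% of genes tested did.

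In MM1S cells, 6 genes fell after IKZF1 knockout and none rose, with a median log2 fold change of -0.11, while 12.6% of genes tested fell and 15.6% rose. The share of 7.69% called was therefore below the 28.2% called among genes tested. MRPS26, of the small subunit (chr20:3046052-3048250), was at 15.8 and 16.7 CPM in knockout libraries against 55.2 and 46.2 CPM in empty vector ones, a log2 fold change of -1.64 ± 0.21 (adjusted p = 4.29e-05). MRPL13, a large subunit protein with a bacterial counterpart, was at 20.7 and 18.4 CPM in knockout libraries against 51.1 and 52.4 CPM, and its log2 fold change was -1.40 ± 0.13 (adjusted p = 2.83e-06). These 2 genes had the largest falls of the 6, and MRPL13 overlaps an exon of MTBP. MRPS36 was at 19.8 and 15.98 CPM in knockout libraries against 29.6 and 26.7 CPM (log2 fold change -0.65 ± 0.16, adjusted p = 0.0059). MRPL1, of the mobile stalk where spent transfer RNA leaves (chr4:77862830-77952785), was at 34.2 and 36.9 CPM against 50.7 and 49.2 CPM (log2 fold change -0.49 ± 0.11, adjusted p = 0.00453). MRPL39 was at 25.4 and 23.9 CPM against 33.2 and 33.9 CPM (log2 fold change -0.44 ± 0.12, adjusted p = 0.0121), and MRPL3 at 115 and 94.0 CPM against 141 and 133 CPM (log2 fold change -0.39 ± 0.11, adjusted p = 0.0186). All 6 lay lower in both knockout libraries than in either empty vector library.

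Without both OPM2 empty vector libraries, 22 genes fell and 7 rose in MM1S knockout cells, where 20.2% and 23.4% of genes tested did, and with the 2 MM1S groups fitted alone 25 fell and 8 rose, where 27.0% and 28.4% did. With GC content and length corrected, 16 fell and 1 rose, where 16.5% and 18.7% of genes tested did.

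**Figure D4:**
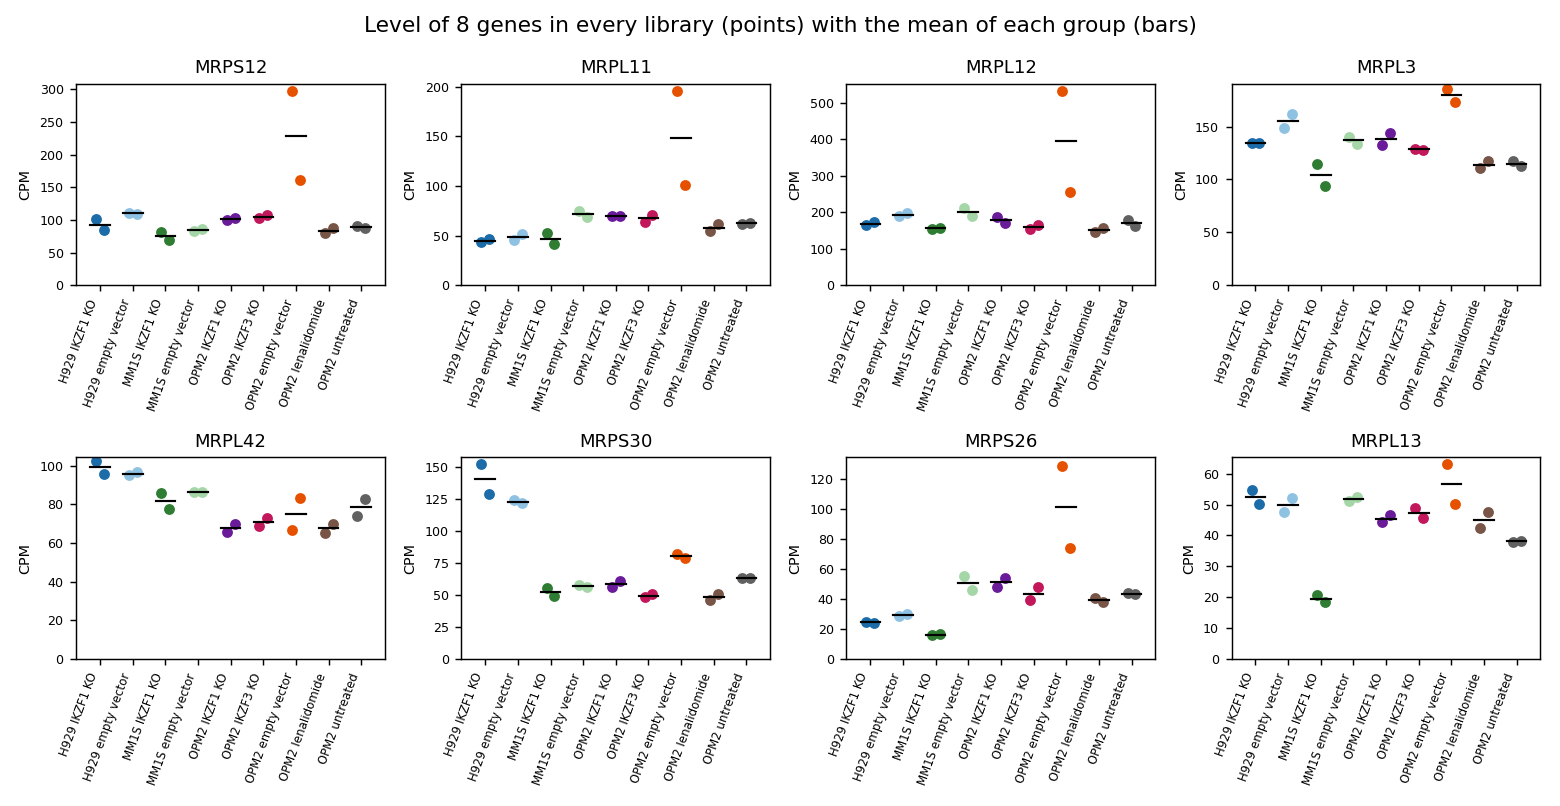
Level in CPM (vertical axes) of 8 of the genes in every library (points) by group, with the group mean as a bar. MRPS26 and MRPL13 are lowest in MM1S knockout libraries, at 15.8 and 16.7 CPM and at 20.7 and 18.4 CPM, and MRPS12 and MRPL12 are highest in OPM2 empty vector libraries.

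Whether the IKZF1 knockout effect differed between lines was tested as a difference of log2 fold changes. H929 and MM1S, each with its own empty vector, differed for 6 of the 78 genes, against 15.9% of genes tested. MRPL13 had a log2 fold change of 0.07 ± 0.13 in H929 and -1.40 ± 0.13 in MM1S cells, a difference of 1.47 ± 0.18 (adjusted p = 8.27e-05), and MRPS26 one of -0.26 ± 0.20 in H929 and -1.64 ± 0.21 in MM1S cells, a difference of 1.38 ± 0.29 (adjusted p = 0.00433). MRPS36, MRPL39 and MRPL1 had differences of 0.73, 0.57 and 0.54, all towards a lower value in MM1S. MRPS14, a small subunit protein with a bacterial counterpart, went the other way, at 35.3 and 31.4 CPM in knockout and 41.6 and 44.1 CPM in empty vector H929 libraries, and 64.7 and 61.0 CPM in knockout and 48.7 and 48.0 CPM in empty vector MM1S libraries, a difference of -0.74 ± 0.20 (adjusted p = 0.0203). Of the 6, MRPL13 and MRPS26 had the largest differences.

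The same difference with OPM2 depended on its control. With empty vector as the OPM2 control, the effect was higher in H929 for 21 genes and lower for none, where 6.51% and 6.14% of genes tested were. It was higher in MM1S for 27 and lower for 1, where 11.8% and 8.94% of genes tested were. The H929 minus OPM2 difference was 1.32 ± 0.25 for MRPL17 (adjusted p = 0.00482), and the MM1S minus OPM2 difference was 1.49 ± 0.29 for MRPS21 (adjusted p = 0.00358). The single lower difference was that of MRPL13 in MM1S, at -1.08 ± 0.18 (adjusted p = 0.00133). With untreated cells as the OPM2 control, edgeR called 0 genes for H929 minus OPM2 (smallest adjusted p 0.0666), against 6.31% of genes tested. There 8 genes had an unadjusted p under 0.05, and the number of genes tested under that level is not given. For MM1S minus OPM2 edgeR then called 6 genes, all lower in MM1S, where 7.08% of genes tested were. They were MRPS26 (-1.87 ± 0.28), MRPL13 (-1.66 ± 0.18, adjusted p = 4.35e-05), MRPL52, MRPL3, MRPL49 and MRPL1. Without empty vector replicate 1, and with the empty vector control, the effect differed for 18 genes between H929 and MM1S (28.8% of genes tested), for 13 between H929 and OPM2 (12.4%) and for 20 between MM1S and OPM2 (20.5%). None of the 21 and 27 higher calls made with the OPM2 empty vector control was made with untreated OPM2 cells, a contrast that also differs in doxycycline, while the lower call of MRPL13 in MM1S was made with both.

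Levels also differed between lines. In empty vector cells, 23 of the 78 genes were higher in H929 than in MM1S and 15 were lower, 48.7% in all, against 63.2% of genes tested, of which 32.9% were higher and 30.3% lower. MRPS21 was at 78.4 and 86.3 CPM in H929 and 34.0 and 32.9 CPM in MM1S empty vector libraries, a log2 fold change of 1.30 ± 0.21 (adjusted p = 6.63e-05). MRPS30 was at 124 and 122 CPM in H929 and 57.8 and 56.5 CPM in MM1S libraries, which made a log2 fold change of 1.11 ± 0.115 (adjusted p = 9.82e-07). Conversely, MRPS33, particular to the mitochondrial small subunit, was at 28.1 and 29.7 CPM in H929 and 69.2 and 66.3 CPM in MM1S libraries, a log2 fold change of -1.23 ± 0.18 (adjusted p = 3.3e-05). Genes of 1 ribosome thus did not share 1 order between the lines, since both directions occurred within each subunit. Against OPM2 empty vector cells, 5 genes were higher and 54 lower in H929, where 32.4% and 32.2% of genes tested were. In MM1S 4 were higher and 60 lower, where 32.8% and 34.7% of genes tested were. Without OPM2 empty vector replicate 1, 10 were higher and 41 lower in H929, where 33.0% and 30.3% of genes tested were, and 8 were higher and 51 lower in MM1S, where 33.1% and 31.9% were. Against untreated OPM2 cells the counts were 24 higher and 11 lower in H929, where 32.2% and 28.9% of genes tested were, and 17 higher and 13 lower in MM1S, where 30.9% and 29.9% were.

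Leaving out OPM2 empty vector, the mean CPM of a gene differed by a median of 1.73-fold between the highest and the lowest of the 8 groups, and by more than 2-fold for 27 genes. MRPL41, particular to the mitochondrial large subunit (chr9:137551879-137552555), had the widest range, 5.05-fold, with 86.2 and 88.7 CPM in H929 empty vector libraries and 17.1 and 17.5 CPM in lenalidomide-treated OPM2 libraries. MRPS28, MRPL33 and MRPS6 followed at 4.29-fold, 3.56-fold and 3.28-fold. MRPS11 and MRPS18A had the narrowest ranges, 1.14-fold and 1.17-fold. In MRPL41 all 4 H929 libraries lay at 76.9 to 88.7 CPM, above every OPM2 library.

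Other genes of mitochondrial protein synthesis, taken from lists, also passed in the OPM2 contrasts, and most counts were smaller without empty vector replicate 1. For all genes tested, 19.5% rose in empty vector against untreated cells, and 20.0% and 20.6% fell in IKZF1 and IKZF3 knockout against empty vector. Without replicate 1 these shares were 10.3%, 10.0% and 11.3%. Of 5 mitoribosomal proteins with other names, 4 rose in empty vector cells and 4 fell in each knockout, and without replicate 1 the counts were 5 risen, 1 fallen in IKZF1 knockout and 3 fallen in IKZF3 knockout. DAP3, a small subunit protein that binds GTP, had log2 fold changes of 0.70 ± 0.13 (adjusted p = 0.00196) in empty vector against untreated, -0.49 ± 0.13 in IKZF1 knockout against empty vector and -0.42 ± 0.13 in IKZF3 knockout against empty vector. Without replicate 1 its values were 0.42 (adjusted p = 0.00281), -0.21 (adjusted p = 0.0938) and -0.14 (adjusted p = 0.28), so the falls no longer passed.

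Of 27 genes for ribosome assembly and ribosomal RNA modification, 21 rose in empty vector cells and 22 fell in each knockout against empty vector, and without replicate 1 the counts were 17 risen, 6 fallen in IKZF1 knockout and 11 fallen in IKZF3 knockout. MALSU1, an assembly factor of the large subunit, had a log2 fold change of 1.06 ± 0.16 in empty vector cells (adjusted p = 0.000871) and of 0.84 without replicate 1. Of 17 translation factors, 6 rose in empty vector cells, and 10 fell in IKZF1 and 8 in IKZF3 knockout against empty vector, and without replicate 1 the counts were 6, 8 and 9. TUFM, the elongation factor that brings transfer RNA, had log2 fold changes of 0.77 in empty vector against untreated cells and -0.94 and -1.002 in IKZF1 and IKZF3 knockout against empty vector, and of 0.34, -0.51 and -0.57 without replicate 1, and all of these passed. Of 15 genes for mitochondrial transcription and RNA processing, 7 rose in empty vector cells with and without replicate 1. Among them was the mitochondrial RNA polymerase POLRMT, with a log2 fold change of 0.87 ± 0.15 (adjusted p = 0.00145), or 0.53 without replicate 1. In IKZF1 and IKZF3 knockout against empty vector 3 and 7 of the 15 fell and 1 rose in each, and without replicate 1 it was 1 and 4 that fell and 1 that rose in each.

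Cytosolic ribosomal protein genes and nuclear genes of the respiratory chain also passed in these contrasts. Of 85 cytosolic ribosomal protein genes, 80 rose in empty vector against untreated cells (median log2 fold change 0.80), and 46 rose without replicate 1 (median 0.34). Their summed level was 96442 and 55859 CPM in empty vector libraries and 46321 and 40845 CPM in untreated ones. Of 75 respiratory chain and ATP synthase genes, 68 rose (median 0.89), and 60 rose without replicate 1 (median 0.42). They summed to 26160 and 17008 CPM in empty vector libraries and 13529 and 12593 CPM in untreated ones. Replicate 1 was thus the highest of these 4 libraries in both sums. Of genes tested, 19.5% rose in empty vector against untreated cells, and 20.0% and 20.6% fell in IKZF1 and IKZF3 knockout against empty vector. In IKZF1 and IKZF3 knockout against empty vector, 80 cytosolic ribosomal protein genes fell in each, and 71 and 61 fell without replicate 1. Of the respiratory chain genes 70 and 69 fell, and 61 and 49 without replicate 1. Against untreated cells edgeR called 0 of the 85 cytosolic genes in either knockout, as did DESeq2 and limma-voom, and the medians were -0.10 and -0.04. At an unadjusted edgeR p under 0.05 there were 4 and 3, against 3098 and 3198 of the 14571 genes tested. In IKZF1 knockout 4.08% of genes tested rose and 3.69% fell, and in IKZF3 knockout 8.27% passed. After lenalidomide 10 of the 85 fell and none rose, with a median of -0.40, while 2 of the 78 mitochondrial ribosomal protein genes fell with a median of -0.09. Of genes tested, 4.58% fell and 5.76% rose after lenalidomide.

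Of 11 genes for regulators of mitochondrial gene expression, none rose and 2 fell in IKZF1 knockout against untreated cells, 1 rose and 2 fell in IKZF3 knockout, and none rose and 2 fell after lenalidomide. Of genes tested, 4.08% rose and 3.69% fell in IKZF1 knockout, 8.27% passed in either direction in IKZF3 knockout, and 5.76% rose and 4.58% fell after lenalidomide. Those that fell were MYC and PPARGC1A in all 3 contrasts, and PPRC1, a relative of PPARGC1A, rose in IKZF3 knockout (0.64, adjusted p = 0.00265). MYC, a transcription factor known to drive ribosome genes, had a log2 fold change of -0.68 ± 0.15 in IKZF1 knockout (adjusted p = 0.0102), -1.25 ± 0.15 in IKZF3 knockout (adjusted p = 0.000123) and -1.29 ± 0.15 after lenalidomide (adjusted p = 5.45e-05). PPARGC1A, a coactivator of mitochondrial biogenesis, had log2 fold changes of -1.92 ± 0.25, -0.94 ± 0.24 and -2.10 ± 0.25 in the same contrasts, and also fell in empty vector cells, by 1.02 ± 0.24 (adjusted p = 0.00533; -0.75, adjusted p = 0.0261, without replicate 1). Both genes were lower in all 3 contrasts. The mitochondrial ribosomal protein genes had medians of 0.12, 0.06 and -0.09 there, and a link to MYC or PPARGC1A was not tested. The 3 contrasts share the untreated libraries.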

How the data were processed

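RNA of 18 cell line libraries, 2 in each of 9 groups, was sequenced. The table of raw counts deposited by the authors has 28395 genes, of which 385 without a symbol took 0.0122 to 0.0276% of the counts. Those 385 could not be chosen by symbol, but stayed in the library totals and went into the filter on low counts. The authors' deposited log2 FPKM values, for 16352 genes in 14 columns with control replicates merged, were used only to describe levels per length. Subread, featureCounts and limma, with GRCh38/hg38, are named in the submitters' processing notes, and versions are not given in the sources used here.

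Counts were tested with edgeR 4.0.16 (quasi-likelihood, robust, TMM scaling, filterByExpr by group, 14571 genes, R 4.3.3) in 1 model of all groups with 9 residual degrees of freedom, over 15 comparisons, with Benjamini-Hochberg adjustment over all genes tested in each comparison. Sharing 1 estimate of the spread lets the OPM2 empty vector pair widen the errors of every comparison. CPM were taken on TMM-scaled library sizes. DESeq2 1.42.0 and limma 3.58.1 (voom) were alternatives, as were other scalings, no filter, the compared groups alone, each library left out, and a spline (5 degrees of freedom) on GC content and transcript length from GENCODE 29. Errors beside fold changes are standard errors. Scripts were tested on simulated data.

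Named genes were the called genes with the highest and lowest fold changes, up to 10 each way (5 between lines and between effects), whose groups did not overlap, plus 15 genes picked for their roles, and up to 4 genes with the smallest p of each other list. The genes and lists were chosen with earlier results of these data known. Knockout libraries could not be matched to their titles one by one, so they have no replicate number. Same-numbered libraries did not deviate together (r from -0.0762 to 0.123). RefSeq promoters were those of GRCh38.p14. Depth, 11803995 to 24189568 counts per library, limits the precision of the lower genes.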

Additional observations from a re-analysis of the deposited data

Results flagged for a closer look

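The IKZF1 knockout effect differed between cell lines by the test of the difference itself for the genes below, and the causes were not tested. Between H929 and MM1S it differed for 6 genes, with log2 differences of 1.47 for MRPL13, 1.38 for MRPS26, 0.73 for MRPS36, 0.57 for MRPL39, 0.54 for MRPL1 and -0.74 for MRPS14. Between H929 and OPM2, with empty vector controls, it differed for 21 genes. The largest differences were 1.32 for MRPL17, 1.16 for MRPL54, 1.04 for MRPS21, 0.98 for MRPL21 and 0.97 for MRPL2. Among the genes picked for their roles they were 0.92 for MRPS12, 0.64 for MRPS30, 0.96 for MRPS36, 0.97 for MRPL58 and 0.92 for MRPS18A.

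Between MM1S and OPM2, with empty vector controls, the effect differed for 28 genes. The differences were 1.49 for MRPS21, 1.36 for MRPL14, 1.22 for MRPL23, 1.22 for MRPL53, 1.07 for MRPL17 and -1.08 for MRPL13. Among the genes picked for their roles they were 1.00 for MRPS12, 0.55 for MRPS16, 0.94 for MRPS18A and 0.72 for MRPS18B. With untreated cells as the OPM2 control, none of the genes named here for H929 against OPM2 passed, and their direction turned for MRPL21 (-0.23), MRPL2 (-0.21), MRPS12 (-0.44) and MRPL58 (-0.03). For MM1S against OPM2 it turned for MRPL17 (-0.04) and MRPS12 (-0.36), and MRPL13 still passed (-1.66). The OPM2 comparisons rest on the empty vector pair, whose replicate 1 had a summed level of 10732 CPM against 6953 CPM in replicate 2.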

How the results depend on the processing

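The counts of called genes among the 78 moved most where the OPM2 empty vector libraries were left out or set the spread. Shares in brackets are of all genes tested that passed under the same setting. The ranges from leaving out 1 library carry no such share, so they do not show whether these genes moved more than genes tested did. Leaving out 1 library at a time gave 0 to 10 calls for H929 knockout, 3 to 29 for MM1S knockout, 40 to 73 for IKZF1 knockout and 42 to 76 for IKZF3 knockout against empty vector OPM2 cells. It gave 0 to 12 and 0 to 14 for these knockouts against untreated cells, 0 to 15 for lenalidomide, 50 to 74 for empty vector against untreated cells and 0 to 4 between the knockouts. For differences of effects it gave 2 to 18 (H929 minus MM1S), 1 to 69 (H929 minus OPM2) and 5 to 61 (MM1S minus OPM2), and between lines 24 to 50 (H929 and MM1S), 45 to 70 (H929 and OPM2) and 52 to 72 (MM1S and OPM2). With the compared groups alone, the calls were 2 for H929 knockout (13.3%), 33 for MM1S knockout (55.4%), 0 for IKZF1 (0.929%) and 0 for IKZF3 knockout (0.419%) against empty vector, 9 (21%) and 14 (29.5%) for these knockouts against untreated cells, 29 for lenalidomide (45.4%) and 0 for empty vector (0.00%). For the effects they were 17 (29.5%), 0 (0.863%; 22 of the 78 at an unadjusted p under 0.05, edgeR) and 1 (5.22%), and between lines 61 (83.5%), 24 (44.2%) and 30 (47.5%), in the orders above. Without both OPM2 empty vector libraries there were 10 calls for H929 knockout (22.6%), 29 for MM1S knockout (43.6%), 13 (20.9%) and 14 (22.3%) for IKZF1 and IKZF3 knockout against untreated cells, 15 for lenalidomide (22.6%), 4 between the knockouts (9.22%) and 17 for H929 minus MM1S (30.1%). The GC and length correction gave 17 calls for MM1S knockout (35.2%), 2 (12.6%) and 3 (13.4%) for IKZF1 and IKZF3 knockout against untreated cells and 1 between the knockouts (4.46%). Without the filter on low counts there were 2 (7.31%) and 1 (7.97%) for these knockouts against untreated cells, 1 for lenalidomide (8.67%), 1 between the knockouts (3.71%) and 39 for H929 minus OPM2 (14.4%). DESeq2 gave 3 for IKZF3 knockout against untreated cells (10.9%), 5 for lenalidomide (12.1%), 1 between the knockouts (3.97%) and 32 for H929 minus OPM2 (18.7%). Limma-voom gave 0 for H929 knockout (11.7%), 1 for IKZF3 knockout against untreated cells (9.10%) and 13 for H929 minus OPM2 (13%), and upper quartile scaling 1 (8.33%) and 11 (11.8%) for the last 2. With untreated cells as the OPM2 control there were 0 calls for H929 minus OPM2 (6.31%) and 6 for MM1S minus OPM2 (15.8%), and 35 (61.2%) and 30 (60.7%) for H929 and MM1S against OPM2. With that control the log2 values changed sign for H929 minus OPM2 in MRPL21 (-0.23), MRPL2 (-0.21), MRPS12 (-0.44) and MRPL58 (-0.03), and for MM1S minus OPM2 in MRPL17 (-0.04) and MRPS12 (-0.36). They also did for H929 against OPM2 in MRPL12 (0.18), MRPS12 (0.30), MRPL58 (0.55), MRPS18A (0.05), MRPS18B (0.25) and MRPS18C (0.42), and for MM1S against OPM2 in MRPL12 (0.23), MRPL11 (0.20), MRPL3 (0.25), MRPS22 (0.32) and MRPS18C (0.30). Of these sign changes, MRPL58 in H929 (edgeR, adjusted p = 0.00682) and MRPS22 in MM1S (adjusted p = 0.0368) passed in the new direction, and the others did not pass. The log2 ratio of the summed level in empty vector over untreated cells was 0.80, and 0.48 without replicate 1. Of 1930 values of named genes under alternatives, 1547 kept direction and call, 366 lost the call and 17 changed sign. The replicate block gave 32 calls for empty vector against untreated cells (13.7%) and 28 for lenalidomide (44.7%), and the numbers do not pair the libraries. No paired analysis was possible because the knockout columns carry no replicate number, for every comparison with a knockout. Other causes were not tested.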

Other observations

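The genes beside MRPS26 and MRPL13, the 2 genes with the largest falls in MM1S knockout cells, were chosen after these values were seen. Near MRPS26, log2 fold changes in MM1S knockout against empty vector cells were -1.27 for VPS16 (edgeR, adjusted p = 7.55e-05), -0.90 for PTPRA (adjusted p = 2.82e-05), -0.79 for UBOX5, -0.72 for PCED1A and -0.68 for FASTKD5, and 0.08 for LZTS3 (adjusted p = 0.959). Near MRPL13 they were -3.42 for SNTB1 (adjusted p = 6.46e-07), -1.48 for MTBP, -1.43 for DSCC1 and -1.42 for TAF2, all called, and 0.11 for DEPTOR and 0.11 for ZHX2, neither called. Of the 12 neighbours, 9 fell in these libraries, where 12.6% of genes tested fell and 15.6% rose.

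In H929 knockout against empty vector cells, 4 of these neighbours passed, where 5.92% of genes tested rose and 4.60% fell. PTPRA had a log2 fold change of 0.49 (adjusted p = 0.00912), SNTB1 one of -2.74 (adjusted p = 1.23e-05), DEPTOR one of -1.53 (adjusted p = 1.22e-06) and ZHX2 one of -0.66 (adjusted p = 0.0302). The others were at 0.67 for PCED1A, 0.49 for VPS16, -0.20 for UBOX5, -0.37 for FASTKD5, 0.12 for LZTS3, 0.02 for TAF2, -0.21 for DSCC1 and 0.06 for MTBP. In OPM2 IKZF1 knockout against untreated cells DEPTOR passed, at -1.12 (adjusted p = 7.39e-05), and the other 11 did not, with values from -0.51 for SNTB1 to 0.50 for ZHX2. Of genes tested, 4.08% rose and 3.69% fell in that OPM2 contrast. DEPTOR, which passed in H929 and in OPM2, was at 0.11 in MM1S. The cause of the falls was not tested.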
